A study of Mus musculus with 6 samples.

Results

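The loci described here are the 219 rows of a neonatal cardiomyocyte (CM) RNA-sequencing table whose Ensembl biotype was sense_intronic, out of 20066 rows in all. Each locus was paired with the protein-coding row that contains it on the same chromosome and strand, called its host, and the αKG-to-DMSO ratios of locus and host were compared. A host was found for 213 loci, which fell into 175 host genes. CMs from P0-1 C57BL/6 mice were cultured for 96 h with DMSO, the solvent, or with α-ketoglutarate (αKG) in a cell-permeable form, at 100 µM per the labels. αKG is an intermediate of the Krebs cycle and a cofactor of many dioxygenases. There were 3 libraries of total RNA per group, and no other genotype or agent distinguished them. Per the study's methods, a sample of neonatal CMs was 1 isolation from pooled hearts, and no sorting of these cells is described, so that other cardiac cell types could be present. The question was whether RNA from within introns followed the RNA of the gene around it when αKG was given.

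Values are normalized read counts that the authors rounded to whole numbers. Their totals lay between 4069900 and 4168009 per library. Among the whole numbers up to 100, αKG replicate 1 lacked 7 and αKG replicate 2 lacked 11, and the other 4 libraries lacked none. Reads in these 2 αKG libraries had thus been multiplied by a factor above 1, which means that a given value stood for fewer reads there. αKG replicate 3 stood apart from replicates 1 and 2 in the median of the loci and in many of the values below, and lay nearer to DMSO. For this reason values are given per library, and counts of calls are given with and without it. As the RNA came from bulk cultures, fewer cells of a type and less RNA per cell cannot be told apart.

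Sense-intronic is an annotation class for transcripts that lie within an intron of a coding gene, on its strand, without sharing its exons. Introns are transcribed as part of the precursor RNA, then removed by the spliceosome as lariats, opened by the debranching enzyme and mostly degraded in the nucleus. Reads from such a locus may come from an RNA with its own start and end, from a retained intron or from precursor RNA of the host, and short reads per locus do not separate these sources. Few of these loci have an assigned function.

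The loci were spread unevenly over the genome. Chromosome 3 held 54 of them, or 24.7%, although it held 5.49% of all rows, and chromosomes 1, 3 and 5 together held 108. In the GENCODE M21 annotation (GRCm38), which held 218 of the 219 loci, 116 had 1 exon and 102 had several. The median exon length was 1335 bases and the median GC content 43.1%. An intron of a coding transcript of the host held 207 loci, and for 75 of these, or 36.2%, it was intron 1. The introns were long, with a median of 26889 bases, and so were the hosts, with a median span of 92825 bases against 25164 for all protein-coding rows. Hosts also had higher levels, with a median mean value of 337.5 normalized counts against 139.3. Per kb of exon, the mean value of the median locus was 12.0% of that of its host, and 12 loci exceeded their host. Bases of a host exon lay within 5 loci, and another row overlapped 9 loci on the opposite strand. No source states that strand was used in counting, and reads of those 9 loci and of their partners cannot be told apart.

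The annotated transcript ends of loci that the results turn on are shown for comparison with the end of an mRNA. Below are the last 100 bases of 9 loci, 5′ to 3′, from GENCODE M21 (GRCm38). Capitals mark the poly(A) signal hexamer AATAAA, or its variant ATTAAA, where it lies in the last 50 bases. The first 4 loci lie in *Magi3* and the next pair in *Celf2* and *Brca2*. The remaining 3, in *Casq2*, *Trim55* and *Trappc9*, are among the loci with the highest values.
*Gm43260*: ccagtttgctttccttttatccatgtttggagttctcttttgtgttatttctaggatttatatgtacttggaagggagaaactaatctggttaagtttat
*Gm43256*: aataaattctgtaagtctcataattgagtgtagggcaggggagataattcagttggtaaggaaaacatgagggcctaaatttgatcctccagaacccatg
*Gm42702*: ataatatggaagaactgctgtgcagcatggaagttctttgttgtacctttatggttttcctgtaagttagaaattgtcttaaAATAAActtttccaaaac
*Gm42699*: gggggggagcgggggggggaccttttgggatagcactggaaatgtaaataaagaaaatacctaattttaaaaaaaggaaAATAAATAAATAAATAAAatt
*Gm10115*: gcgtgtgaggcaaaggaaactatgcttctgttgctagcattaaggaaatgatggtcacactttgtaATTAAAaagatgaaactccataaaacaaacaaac
*Gm42531*: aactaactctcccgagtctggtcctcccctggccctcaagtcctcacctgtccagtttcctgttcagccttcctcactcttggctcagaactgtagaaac
*4632404M16Rik*: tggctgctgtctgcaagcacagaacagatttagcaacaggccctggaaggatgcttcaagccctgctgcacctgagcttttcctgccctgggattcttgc
*BC002189*: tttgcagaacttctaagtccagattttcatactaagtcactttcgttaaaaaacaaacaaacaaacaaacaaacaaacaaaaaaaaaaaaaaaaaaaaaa
*Peg13*: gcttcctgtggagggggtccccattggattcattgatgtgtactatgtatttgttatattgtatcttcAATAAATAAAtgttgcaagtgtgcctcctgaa
Only the ends of *Gm42702*, *Gm42699*, *Gm10115* and *Peg13* hold a hexamer in that window, among these 9. The end of *BC002189* is a run of A, and A makes up 58.0% of the bases shown. The stretches lie, in this order, at chr3:104180612-104180711, chr3:104187103-104187202, chr3:104135785-104135884 and chr3:104114039-104114138, at chr2:6950453-6950552, chr5:150566259-150566358, chr3:102137397-102137496 and chr3:19686469-19686568, and at chr15:72805600-72805699. *Gm42531*, *4632404M16Rik* and *BC002189* are on the plus strand and the others on the minus strand.

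Searched on the transcript strand, AATAAA lay in the last 50 bases of 48 of 218 sense-intronic transcripts, or 22.0%. The same share was 19.8% for TEC rows, annotated transcripts that await experimental evidence, 38.2% for antisense rows, 40.9% for lincRNA rows and 59.9% for protein-coding rows. With ATTAAA added, the shares were 28.0% for sense-intronic, 26.8% for TEC, 50.1% for lincRNA and 74.0% for protein-coding rows. The reverse complement TTTATT, looked for in the same window, was in 1.83% of sense-intronic and 7.37% of protein-coding transcripts. In this feature the loci were thus nearer to TEC rows than to mRNAs. A match is a description of letters, not a mapped polyadenylation site.

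As a group, sense-intronic loci were higher in αKG than in DMSO, whereas their hosts were not. On the log2(value + 1) scale, which understates the change of low rows, the median difference between αKG and DMSO was 0.77 over the 219 loci, with quartiles of 0.44 and 1.21, and 191 of them were higher. The median was -0.00 over the 175 hosts and 0.04 over all rows. The summed values of the loci were 2813, 3191 and 2800 in DMSO replicates 1 to 3 against 6451, 6191 and 3338 in αKG replicates 1 to 3. The sums of the hosts were 88458, 90083 and 88685 in DMSO and 87773, 88563 and 90539 in αKG. Thus the sums of the loci were highest in αKG replicates 1 and 2 and nearer to DMSO in αKG replicate 3, while host sums overlapped between groups.

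The shift per library shows the same order. Measured against the DMSO mean, the median locus lay at 1.20, 1.09 and 0.22 on the log2 scale in αKG replicates 1 to 3, and between -0.05 and 0.08 in the DMSO libraries. Of the 85 loci with a mean of at least 10, 79, 77 and 36 were above every DMSO library in αKG replicates 1 to 3, and 4, 5 and 12 were below every DMSO library. No share over all rows was computed for these counts, so they describe the loci alone. The median shifts of these 85 loci were 1.31, 1.23 and 0.20 in αKG replicates 1 to 3. Over all rows with such a mean they were -0.04, -0.03 and -0.01. TEC rows inside a coding row behaved alike, with a median difference of 1.00 over 1095 rows, against 0.36 for the 437 TEC rows that lay elsewhere. lincRNA rows had a median of 0.33, antisense rows 0.14 and protein-coding rows -0.03. The elevation was therefore not particular to the sense-intronic class.

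**Figure D1:**
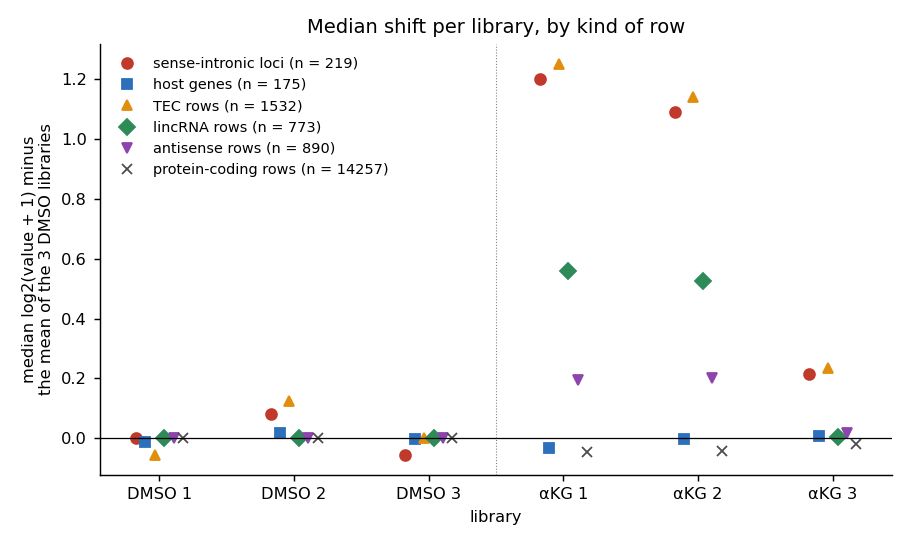
Median over the rows of each kind of log2(value + 1) in a library minus the mean of the 3 DMSO libraries (y axis), for each of the 6 libraries (x axis). Sense-intronic loci and TEC rows lie near 0 in DMSO, above 1 in αKG replicates 1 and 2 and at 0.22 and 0.24 in αKG replicate 3, whereas host genes and protein-coding rows stay near 0 in all libraries.

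In the test of each row (limma with a variance trend, Benjamini-Hochberg adjustment over all 20066 rows, called at an adjusted *P* under 0.05), 3 loci were called higher in αKG and 0 lower. Of all rows, 2.83% were called higher and 0.952% lower, so the share of called loci was under this background. Without adjustment, 87 loci had a *P* under 0.05 in the higher and 3 in the lower direction, where 15.7% and 12.4% of all rows did. The 3 αKG libraries were all above the 3 DMSO libraries for 63 loci, or 28.8%, against 13.7% of all rows. They were all below for 4 loci, or 1.83%, against 14.6%. Among the 85 loci with a mean of at least 10, 35 were without overlap and higher and 4 lower, where 16.1% and 20.6% of rows with such a mean were. Without αKG replicate 3, 102 loci were called higher and 3 lower, where 19.3% and 17.9% of all rows were. Without αKG replicate 1 or replicate 2, or without any single DMSO library, 0 loci were called (limma), where at most 0.76% of all rows were. Between 34 and 69 loci then had an unadjusted *P* under 0.05. The table lists a row only if some library reached 2, so that low loci could enter it through the αKG libraries alone.

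Only *Gm43260*, *Gm10115* and *Gm42531* were called in the fit of all 6 libraries. *Gm43260* lies in intron 1 of *Magi3*, which encodes a membrane-associated scaffold of the guanylate kinase family, at chr3:104180612-104183041. Its normalized counts were 25, 46 and 30 in DMSO replicates 1 to 3 against 163, 177 and 56 in αKG replicates 1 to 3. αKG replicate 3 was just above the highest DMSO library, and the groups did not overlap. The log2 difference was 1.82 ± 0.41 (SE, n = 3 per group, adjusted *P* = 0.0445).

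*Gm10115* lies in intron 3 of *Celf2*, an RNA-binding regulator of splicing, at chr2:6950453-6951680. It had 15, 31 and 27 normalized counts in DMSO against 99, 107 and 43 in αKG, again without overlap, a log2 difference of 1.68 ± 0.38 (adjusted *P* = 0.0446). *Gm10855* lies in the same intron at chr2:6932541-6935081 and had 37, 58 and 47 normalized counts in DMSO against 166, 199 and 64 in αKG. Its log2 difference was 1.44 ± 0.37 and missed the threshold (adjusted *P* = 0.0592). *Celf2* itself was called higher, with 652, 683 and 688 normalized counts in DMSO against 1108, 1151 and 895 in αKG (log2 difference 0.63 ± 0.09, adjusted *P* = 0.0159). Per kb of exon, *Gm10115* and *Gm10855* had 131% and 112% of the level of *Celf2*, so that both were covered at least as densely as its annotated exons.

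*Gm42531* lies in intron 24 of *Brca2*, whose product acts in repair of DNA breaks by homologous recombination, at chr5:150562311-150566358. Its values were low, with 5, 2 and 5 normalized counts in DMSO against 19, 19 and 15 in αKG. Here αKG replicate 3 was nearly as high as the other αKG libraries. The log2 difference was 1.96 ± 0.40 (adjusted *P* = 0.0374). *Brca2* was called higher as well, with 358, 299 and 245 normalized counts in DMSO against 639, 614 and 736 in αKG (log2 difference 1.15 ± 0.13, adjusted *P* = 0.00624).

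**Figure D2:**
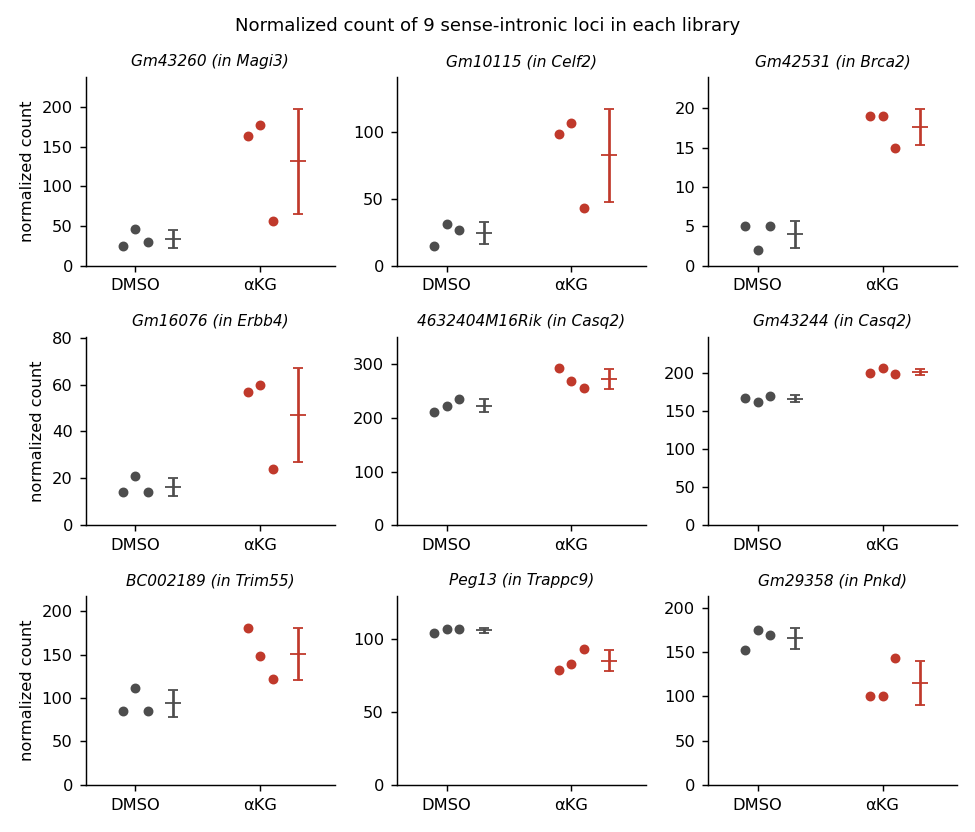
Normalized count (y axes, linear from 0) of 9 sense-intronic loci in each DMSO (grey) and αKG (red) library, with replicates 1 to 3 from left to right and the mean ± SD of the 3 libraries beside the points. The loci of *Magi3*, *Celf2* and *Erbb4* are highest in αKG replicates 1 and 2, those of *Casq2* differ little, and *Peg13* and *Gm29358* are lower in αKG.

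The ratio of a locus to its host was then tested within each library, as log2(locus + 1) minus log2(host + 1), across all 2110 non-coding rows that lie inside a coding row on its strand. The median ratio difference was 0.79 over the 213 loci, and 184 of them had a higher ratio in αKG. TEC rows had a median of 0.93, processed pseudogenes 0.65, small nuclear RNA genes 0.61, microRNA genes 0.42 and small nucleolar RNA genes 0.25, and all pairs had 0.77. At an adjusted *P* under 0.05, 5 loci had a higher and 1 a lower ratio, where 3.27% and 0.0474% of all pairs did. Without adjustment, 73 had a higher and 1 a lower ratio, against 29.7% and 0.711% of all pairs. The ratios of the 3 αKG libraries were all above those of DMSO for 60 loci, or 28.2%, against 28.5% of all pairs, and all below for 4 loci, where 0.995% of all pairs were. Among rows with a mean of at least 10, 23 of 82 loci were called with a higher ratio, against 36.0% of such pairs. Without αKG replicate 3, 105 loci had a higher and 1 a lower ratio, against 43.7% and 0.664% of all pairs. The share of loci with a higher ratio was thus below that of all pairs by the adjusted calls and among rows with a mean of at least 10, close to it by overlap, and above it without adjustment and without αKG replicate 3. Without any other single library, 0 ratios of loci were called (limma), where at most 0.19% of all pairs were. Between 26 and 60 of the loci then had an unadjusted *P* under 0.05.

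The called ratios belonged to 4 *Magi3* loci, described below, and to 2 loci at very low levels that fall outside the rule for naming and were named after their values were seen. *Gm11722* in *Psmd12*, a proteasome subunit gene, had 0 normalized counts in every DMSO library and 2, 3 and 3 in αKG. *Gm16306* in *Smim17* had 3, 2 and 1 in DMSO and 1, 1 and 0 in αKG, while its host had 1, 0 and 0 in DMSO and 3, 2 and 2 in αKG. No fold is given for either, since these values are at the limit of detection and the fitted difference rests on the pseudocount.

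Locus and host often differed in the sign of their log2 difference. Most host differences were small, with quartiles of -0.17 and 0.19. Of the 175 hosts, 86 were higher and 89 lower, but only 2 were called lower, so the sign of many hosts is uncertain. Of the 213 pairs, 95 had both members higher in αKG, 90 had a higher locus and a lower host, 22 had both lower and 6 had a lower locus and a higher host. Across pairs, the Spearman correlation of the log2 difference of the locus with that of the host was 0.30 (n = 213), and 0.40 for the 82 loci with a mean of at least 10. These points share their 6 libraries, and loci of 1 host share that host, so the values are descriptive. The level per kb of the locus correlated with that of the host at 0.54 (n = 212).

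**Figure D3:**
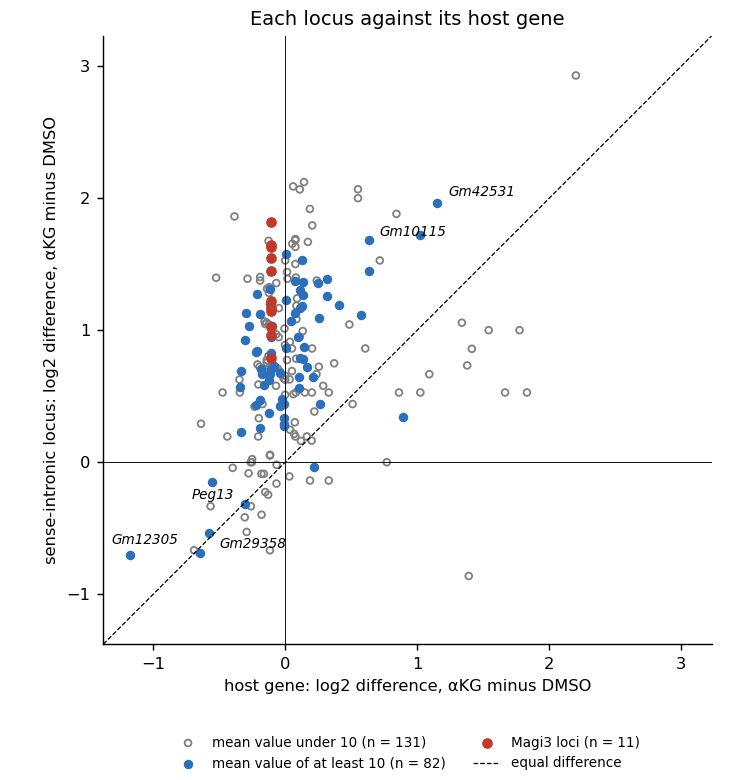
Log2 difference between αKG and DMSO of each of 213 sense-intronic loci (y axis) against that of its host gene (x axis); the dashed line marks equal differences. Most points lie above the line, 90 with a higher locus and a lower host, and the 11 loci of *Magi3* (red, all with a mean of at least 10 and counted in the 82) stand above a host difference of -0.10.

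*Magi3* held more loci than any other host, 11 of the 219. The gene itself had 2399, 2379 and 2357 normalized counts in DMSO against 2173, 2295 and 2169 in αKG. The αKG libraries were all lower, but the log2 difference of -0.10 ± 0.05 missed the threshold (adjusted *P* = 0.205). All 11 loci had a higher mean in αKG, with log2 differences from 0.79 to 1.82 and a median of 1.22. Their summed values were 314, 454 and 360 in DMSO and 1311, 1470 and 436 in αKG, so that αKG replicate 3 lay within the DMSO range. Intron 1, which is 113797 bases long, held 8 of the loci, and introns 2, 6 and 7 held 1 each.

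Of the *Magi3* loci, *Gm43256* had the highest values, with 58, 101 and 82 normalized counts in DMSO against 299, 326 and 102 in αKG. It starts 30181 bases from the start of *Magi3* (chr3:104187103-104190193). Its ratio to *Magi3* rose by 1.55 ± 0.37 on the log2 scale (adjusted *P* = 0.0459). Its own log2 difference was 1.45, and 0.99 with the GC and length correction. The ratios of *Gm43260*, *Gm42701* and *Gm43258* were called as well, at 1.92 ± 0.41, 1.73 ± 0.44 and 1.65 ± 0.41, with the same adjusted *P* of 0.0459. With the GC and length correction, the ratio differences of *Gm42701* and *Gm43258* were 0.96 and 1.02 and no longer called (adjusted *P* = 0.0948 and 0.0703), and their own log2 differences were 0.77 and 0.84 in place of 1.63 and 1.55. *Gm42701* had 13, 29 and 24 normalized counts in DMSO against 83, 111 and 32 in αKG, and *Gm43258* had 24, 34 and 27 and then 114, 132 and 39. In all 4, αKG replicate 3 was above each DMSO library by a small margin.

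For the others, αKG replicate 3 was mostly within the DMSO range. *Gm42702* had 55, 64 and 54 normalized counts in DMSO against 197, 226 and 55 in αKG, and *Gm43259* had 45, 73 and 44 and then 181, 207 and 45. Their ratio differences of 1.32 ± 0.40 and 1.27 ± 0.43 missed the threshold (adjusted *P* = 0.0541 and 0.0647). *Gm42699*, deepest in intron 1, had 3, 4 and 4 in DMSO and 20, 28 and 4 in αKG (ratio difference 1.75 ± 0.58, adjusted *P* = 0.0622). With the GC and length correction, the log2 differences of *Gm42702*, *Gm43259* and *Gm42699* themselves were 0.93, 0.72 and 1.02 in place of 1.22, 1.17 and 1.64. *Gm42696*, in intron 7 and farthest from the start, had 25, 20 and 20 in DMSO and 53, 47 and 22 in αKG, and the smallest difference of the 11, 0.79 ± 0.33. Along the gene, the log2 difference correlated with the distance from the start at a Spearman coefficient of -0.55, and the level per kb at -0.55 as well (n = 11 loci of 1 gene, which share every library). The level per kb of *Gm43260* was 12.7% of that of *Magi3*.

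**Figure D4:**
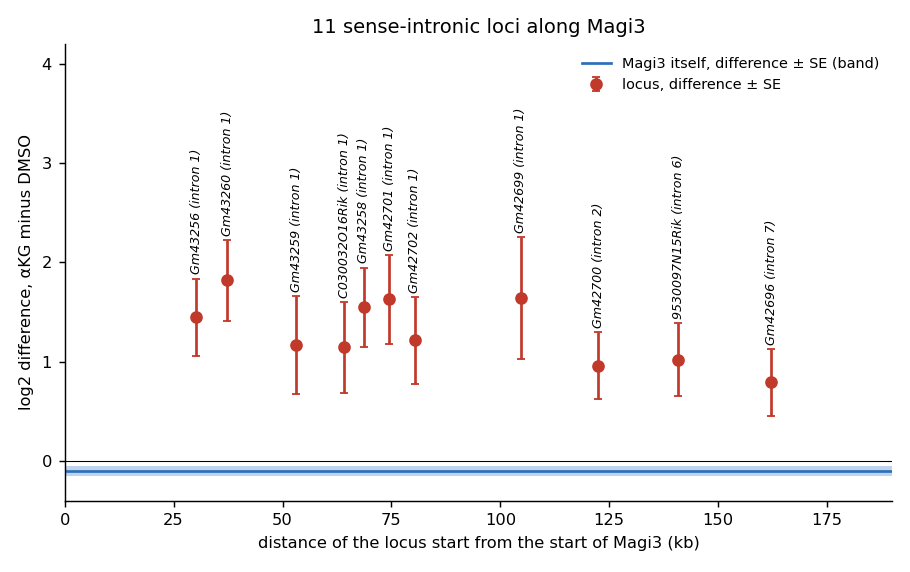
Log2 difference between αKG and DMSO (y axis, points with SE, n = 3 per group) of the 11 sense-intronic loci of *Magi3* against the distance of their start from the start of the gene in kb (x axis), with *Magi3* itself as a blue line and band. All 11 points lie between 0.79 and 1.82, whereas *Magi3* is at -0.10 ± 0.05.

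In all, 18 hosts held several loci, which made up 56 loci. *Cdk14*, a cyclin-dependent kinase gene, held 7, with summed values of 24, 37 and 16 in DMSO and 91, 83 and 51 in αKG, whereas *Cdk14* itself had 403, 416 and 412 and then 364, 407 and 547. All 7 had a higher mean in αKG (median log2 difference 1.50), and for 4 of them the groups did not overlap, which was so for 28.8% of all loci and 13.7% of all rows. *Man1a2*, which encodes a Golgi mannosidase, held 4 loci with sums of 79, 85 and 71 in DMSO and 261, 248 and 80 in αKG. *Rap1a*, a small GTPase gene, also held 4, with sums of 37, 38 and 35 in DMSO and 90, 98 and 45 in αKG. The host differences were 0.08 ± 0.13, 0.13 ± 0.08 and -0.19 ± 0.14 for *Cdk14*, *Man1a2* and *Rap1a*. Sums of loci thus exceeded DMSO in αKG replicates 1 and 2 in each of these hosts. Replicate 3 was above every DMSO library in *Cdk14* and, by a small margin, in *Rap1a*. In *Hipk1* and *Rabgap1l*, 1 of 2 loci was lower in αKG, at -0.23 and -0.09, and the other was higher.

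Among the loci with the highest values, those in *Casq2* had smaller differences than those in *Magi3*. *4632404M16Rik* and *Gm43244* lie in introns 8 and 7 of *Casq2*, cardiac calsequestrin, which buffers calcium in the sarcoplasmic reticulum. *4632404M16Rik* (chr3:102134615-102137496) had 210, 222 and 234 normalized counts in DMSO against 292, 269 and 256 in αKG, a log2 difference of 0.29 ± 0.10 (adjusted *P* = 0.1). *Gm43244* (chr3:102129938-102131222) had 167, 161 and 170 in DMSO and 199, 206 and 198 in αKG, a difference of 0.27 ± 0.10 (adjusted *P* = 0.115). In both, αKG replicate 3 was above every DMSO library and close to the other αKG libraries. *Casq2* had 1486, 1474 and 1509 normalized counts in DMSO against 1439, 1523 and 1476 in αKG, and its difference was -0.01 ± 0.05.

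*BC002189*, in the last intron of *Trim55*, which encodes a sarcomeric ubiquitin ligase, had 85, 112 and 85 normalized counts in DMSO against 181, 149 and 122 in αKG. The groups did not overlap, with a difference of 0.67 ± 0.18 (adjusted *P* = 0.0628), whereas *Trim55* was at -0.11 ± 0.07. *B930095G15Rik*, in intron 13 of *Farp1*, had 76, 78 and 66 in DMSO and 120, 93 and 88 in αKG (0.44 ± 0.17, adjusted *P* = 0.129). *Farp1* had 411, 393 and 404 in DMSO and 525, 453 and 472 in αKG, a difference of 0.26 ± 0.08, so that locus and host were both higher without overlap. Over the 23 loci with a mean of at least 50, the median difference was 0.69, against 0.94 over the 62 loci with a mean from 10 to 50.

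At 4 loci, or 1.83%, every αKG library was below every DMSO library, against 14.6% of all rows. In each the host was lower too, as were 89 of all 175 hosts. *Peg13*, an imprinted transcript expressed from the paternal allele, lies in intron 17 of *Trappc9*, a subunit of a vesicle tethering complex, at chr15:72805600-72810324. It had 104, 107 and 107 normalized counts in DMSO against 79, 83 and 93 in αKG (log2 difference -0.32 ± 0.13, adjusted *P* = 0.159). *Trappc9* had 396, 372 and 404 in DMSO and 312, 309 and 329 in αKG, a difference of -0.30 ± 0.08, so that the ratio differed by -0.02 ± 0.31. *Gm29358*, in intron 3 of *Pnkd* (chr1:74295603-74298867), had 152, 175 and 170 in DMSO and 101, 101 and 144 in αKG (-0.54 ± 0.16, adjusted *P* = 0.0803). *Pnkd* had 349, 384 and 417 and then 229, 224 and 325, a difference of -0.58 ± 0.14, and the ratio differed by 0.04 ± 0.29. *Tmbim1* overlaps *Gm29358* on the opposite strand.

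A further lower locus, named after its values were seen, had lower levels. *Gm12305*, in intron 4 of *Ntn1*, the axon guidance ligand netrin 1, had 14, 12 and 15 normalized counts in DMSO against 8, 7 and 9 in αKG (-0.71 ± 0.32, adjusted *P* = 0.186). *Ntn1* had 1007, 942 and 866 in DMSO and 322, 284 and 771 in αKG. Host and locus were lower together in 22 of the 213 pairs.

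Further loci with small *P* values were higher in each αKG library. *Gm16076* starts 1319 bases into *Erbb4*, the receptor for neuregulins, and ends within its intron 1. It had 14, 21 and 14 normalized counts in DMSO against 57, 60 and 24 in αKG (1.39 ± 0.37, adjusted *P* = 0.0628), and *Erbb4* had 637, 631 and 677 and then 836, 842 and 744 (0.31 ± 0.07, adjusted *P* = 0.0506). *Hm629797*, in intron 15 of *Phkb*, a phosphorylase kinase subunit gene, had 5, 9 and 9 in DMSO and 29, 29 and 15 in αKG (1.53 ± 0.38, adjusted *P* = 0.0552), while *Phkb* differed by 0.13 ± 0.07. *Gm13380*, in intron 2 of *Arhgap21*, had 9, 4 and 8 in DMSO and 31, 21 and 16 in αKG (1.58 ± 0.40, adjusted *P* = 0.056). *Arhgap21* itself was at 0.01 ± 0.05. *Gm42658*, in intron 8 of *Capza1*, an actin capping subunit gene, had 7, 15 and 11 in DMSO and 33, 28 and 21 in αKG (1.27 ± 0.35, adjusted *P* = 0.0657), and *Capza1* was at -0.22 ± 0.15. *Gm26930*, which no coding row of the table contained, had 26, 23 and 26 in DMSO and 68, 60 and 35 in αKG (1.04 ± 0.27, adjusted *P* = 0.0609). Every αKG library was thus above every DMSO library at these 5 loci, but the differences missed the adjusted threshold. The 5 were named for small *P* values, and such a separation was found for 28.8% of all loci and 13.7% of all rows.

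Of the 175 hosts, 7 were called higher and 2 lower, where 2.83% and 0.952% of all rows were. Without αKG replicate 3 these were 43 and 49, against 19.3% and 17.9% of all rows. Without any other single library at most 2 hosts were called, and at most 0.758% of all rows. Besides *Celf2* and *Brca2*, the higher hosts were *Ifrd1*, *Anln*, *Cep112*, *Bach2* and *P3h2*, and *Zfp444* was among the lower hosts. *Anln* encodes anillin, a scaffold of the cytokinetic ring, and had 614, 375 and 307 normalized counts in DMSO against 916, 821 and 793 in αKG. Its locus *Gm48646* had 9, 3 and 3 and then 25, 19 and 10. *Ifrd1* had 259, 266 and 243 in DMSO and 408, 375 and 362 in αKG, and its locus *Gm17024* had 12, 11 and 9 and then 19, 32 and 23. *Zfp444*, a zinc finger gene, fell from 195, 180 and 179 to 108, 107 and 143, whereas its locus *Gm45148* had 5, 4 and 3 in DMSO and 10, 4 and 3 in αKG, with 45 bases shared with a host exon. For the 203 loci whose host was not called, the median ratio difference was 0.79, and for the 8 loci in hosts called higher it was 0.81.

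The size of the difference varied with the sequence and place of the locus. Loci with a GC content under the median of 43.1% had a median log2 difference of 0.96, and the others 0.67 (n = 109 each). TEC rows split at the same GC content had 0.99 and 0.67, and protein-coding rows 0.02 and -0.05. Loci in introns shorter than the median had 0.63 (n = 103), and those in longer introns 1.04 (n = 104). Loci of 1 exon had 0.88 and loci of several exons 0.65, and loci with AATAAA in the last 50 bases had 0.60 against 0.85 without. Intron 1 and later introns differed less, at 0.86 and 0.75. The groups also differed in level, and the log2 scale understates the change of low rows. Loci under and over the GC split had median mean values of 9.67 and 4.33 normalized counts. Loci of 1 and of several exons had 10.2 and 4.25. For shorter and longer introns the order was the other way, at 8.83 and 6.50. The part of the level in these differences was not tested. Spearman correlations of the log2 difference were 0.33 with intron length (n = 207), 0.24 with host span (n = 213) and -0.27 with GC content (n = 212), as descriptions over loci of the same libraries. Among loci with a mean of at least 10 they were 0.35 (n = 80), 0.31 (n = 82) and -0.39 (n = 82). With the trends on GC content and length removed in each library, the median over loci was 0.55.

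Genes whose products process or degrade intronic RNA showed few called differences. Of the RNA exosome and its adaptors, which degrade nuclear RNA, 20 genes were listed and 0 were called (limma), 5 being lower at an unadjusted *P* under 0.05, where 12.4% of all rows were. Their median log2 difference was -0.07, and all 3 αKG libraries were lower than DMSO for 5 of them and higher for 0, against 14.6% and 13.7% of all rows. *Zfc3h1* had 568, 663 and 652 normalized counts in DMSO against 916, 826 and 586 in αKG, and *Srrt* had 716, 702 and 713 and then 729, 622 and 767. Of 14 genes of the Integrator complex, which ends transcription of short non-coding RNAs, only *Ints2* was called. It had 169, 147 and 156 in DMSO and 245, 253 and 211 in αKG (0.58 ± 0.11, adjusted *P* = 0.035). Without adjustment, 4 of the 14 Integrator genes were lower and 1 was higher, where 12.4% of all rows were lower. All 3 αKG libraries were below DMSO for 4 of them and above for 1, against 14.6% and 13.7% of all rows. The median of the Integrator genes was -0.12. Of 16 genes of intron removal and lariat debranching, 0 were called and 2 were lower without adjustment, with a median of -0.11. The debranching enzyme gene *Dbr1* had 165, 169 and 156 in DMSO and 120, 113 and 164 in αKG (-0.32 ± 0.15, adjusted *P* = 0.197), and *Prpf8* and *Sf3b1*, core splicing factors, were at -0.06 ± 0.06 and 0.09 ± 0.06. Of 21 genes of premature cleavage, polyadenylation and termination, 0 were called and 1 was lower without adjustment, with a median of -0.07, and *Fip1l1* and *Cdk13* were at -0.01 ± 0.07 and -0.13 ± 0.07. Over the same fit, 3.78% of all rows were called in either direction.

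Long non-coding RNAs that are retained in the nucleus followed the loci in the order of the libraries. Of 10 listed, 9 had a higher mean in αKG, with a median log2 difference of 1.02, and 1, *Xist*, was called (0.49 ± 0.11, adjusted *P* = 0.0494), where 2.83% of all rows were called higher. Their summed values were 9644, 10044 and 9888 in DMSO and 18694, 18400 and 10000 in αKG. *Neat1*, the paraspeckle scaffold, had 832, 953 and 946 normalized counts in DMSO against 4264, 3886 and 846 in αKG. *Kcnq1ot1*, an imprinted antisense transcript, had 605, 749 and 587 and then 2180, 2280 and 751, and *Malat1* had 4534, 4478 and 4557 and then 5672, 5843 and 4433. In *Neat1* and *Malat1*, αKG replicate 3 did not exceed DMSO.

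Marker genes of several cell types differed between the groups, for 3 of the lists mainly in αKG replicates 1 and 2. Of all rows, 2.83% were called higher and 0.952% lower, and 15.7% and 12.4% were so without adjustment. The summed level of 12 cardiomyocyte markers, 0 of them called (limma) and 3 higher and 2 lower without adjustment, lay between 78764 and 81405 in DMSO and was 111945, 114968 and 83368 in αKG replicates 1 to 3. *Ttn* alone had 51569, 54216 and 53157 in DMSO and 80306, 84136 and 55569 in αKG, and thus made up most of this sum. The median log2 difference of the 12 markers was 0.07, with 9 higher. *Nkx2-5*, *Pln* and *Tnni3* were lower, at -0.41 ± 0.18, -0.15 ± 0.06 and -0.05 ± 0.06. Sums of 10 fibroblast markers lay between 4328 and 4521 in DMSO and were 8453, 8319 and 4303 in αKG, and those of 10 epicardial markers lay between 483 and 519 and were 1279, 1238 and 456, with 0 called and 5 and 2 genes higher without adjustment. Of 12 endothelial markers, 9 were called lower. The sums of the 12 lay between 2366 and 2479 in DMSO and were 1761, 1611 and 1627 in αKG replicates 1 to 3. *Flt1*, not among the 9, had 485, 510 and 499 in DMSO and 733, 719 and 411 in αKG, and so weighed on these sums. *Pecam1* had 339, 303 and 307 and then 129, 134 and 184. In *Pecam1*, *Cdh5*, *Kdr*, *Emcn* and *Erg*, replicate 3 was nearer to DMSO than both other αKG libraries. In *Tie1*, *Egfl7*, *Esam* and *Eng* it was not. The means of *Flt1*, *Tek* and *Vwf* were higher in αKG, by 0.27 ± 0.19, 0.38 ± 0.26 and 0.47 ± 0.40 on the log2 scale, and were not called. Of 10 smooth muscle and pericyte markers, *Cnn1* and *Cspg4* were called higher and 0 were called lower. Without adjustment 2 were higher and 2 lower, and the median log2 difference was 0.17. Their sums were from 4306 to 4415 in DMSO and 5027, 4613 and 4707 in αKG. Of 10 macrophage markers 4 were listed, with sums of at most 41, and 0 were called or had an unadjusted *P* under 0.05. No marker that was listed was at 0 in the DMSO libraries. The part of these differences in the values of the loci was not tested.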

How the data were processed

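Total RNA of 6 cultures of neonatal mouse CMs, 3 with DMSO and 3 with αKG, was sequenced from stranded libraries. Per the labels, the authors used Trimmomatic 0.39 for trimming, STAR 2.7.10a for alignment to mm10 (GRCm38.p5), featureCounts 2.0.3 for reads per gene and DESeq2 1.30.1 for normalization. As the deposited values are normalized counts rounded to whole numbers, they were treated as a score and not as raw counts, and raw depth is unknown. Replicates are separate samples per the labels; where cultures were not independent, *P* values measure only technical spread.

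Rows were tested with limma 3.58.1 (R 4.3.3) on log2(value + 1) with a variance trend and treatment as the only term, over 20066 rows. The ratio of a locus to its host was tested over 2110 rows inside a coding row. The shortest containing row was the host, since 3 loci had several. Adjustment was by Benjamini-Hochberg. Positions are those of the table, of which 99.0% were identical in GENCODE M21, the source of exons, introns, GC content and sequences. The steps were tested on simulated data, in which changed rows had higher levels than the median locus and no replicate stood apart. That test therefore does not cover low loci or a library like αKG replicate 3. The named loci are the 10 with the highest mean and, among those with a mean of at least 10, up to 10 with the smallest *P* in each test. Of the RNA processing lists, genes past the threshold or else the 2 with the highest mean are named, with *Dbr1*, *Neat1*, *Kcnq1ot1*, *Malat1* and *Ttn* added after their values were seen. The members, lists and rules were chosen with earlier results of these data known. Alternatives were the pseudocount, a filter at a mean of 10, no trend, scaling, quantile normalization, a replicate block, GC and length correction, another host and each library left out. Single-locus subsets were chosen after seeing the data. For the αKG concentration, which differs between labels and methods, that of the labels is given. The values of 1 lower locus and of its host are not reported here.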

Additional observations from a re-analysis of the deposited data

How the results depend on the processing

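The loci called either way numbered 3. They were 5 at a pseudocount of 5, 1 without the variance trend, 0 after quantile normalization and 90 at an unadjusted *P* under 0.05. With a library left out they were between 0 and 105, the highest without αKG replicate 3. Where 0 loci were called, between 34 and 88 had an unadjusted *P* under 0.05. Of all rows, 3.78% were called in the main fit, 4.15% at a pseudocount of 5, 0.135% without the trend and 3.19% after quantile normalization. The share was 37.2% without αKG replicate 3 and at most 0.76% without any other library. Unadjusted, 15.7% of all rows were higher and 12.4% lower. Ratios called numbered 6. They were 17 at a pseudocount of 5, 15 at 0.5, 23 among rows with a mean of at least 10, 0 without the trend, 13 after scaling all libraries to 1 total and 74 unadjusted, and between 0 and 106 with a library left out, with 26 to 60 unadjusted where 0 were called. Of the hosts 9 were called, 0 without the trend, 24 with the GC and length correction (8 higher and 16 lower, against 7 and 2, with 6.22% of all rows called) and between 0 and 92 with a library left out, with 35 to 43 unadjusted where 0 were called. With the replicate block, 0 loci, 31 ratios and 1 host were called, against 0.229% of all rows and 14.8% of all pairs. Of all pairs, 10.2%, 9.15%, 36.1% and 6.49% were called at the pseudocounts of 5 and 0.5, at a mean of at least 10 and after scaling, and 44.4% without αKG replicate 3. Without the trend 0 pairs were called, and with any other library left out at most 0.19% were. Deviations of libraries with the same number correlated at -0.07, 0.14 and 0.00. With deviations taken within groups of 3 libraries, these values cannot decide whether libraries with the same number were paired. The labels do not state it. The median difference over loci of 0.77 ranged from 0.47 after quantile normalization to 0.93 among loci with a mean of at least 10, and from 0.64 to 1.06 with a library left out. It was 0.69 with 1 median per host and 0.73 without the *Magi3* loci, both chosen after seeing the data. The ratio difference of *Gm29358* of 0.043 turned to -0.0024 after quantile normalization, and that of *Peg13*, between -0.055 and 0.025 with a library left out, turned to 0.025 without DMSO replicate 2 and to 0.023 without αKG replicate 1. Neither was called in these fits. *Gm42701* and *Gm43258* lost the ratio call with the GC and length correction, at 0.96 and 1.02 against 1.73 and 1.65. The cause of these changes was not tested. edgeR and DESeq2 were not run, since they need raw counts. Low values limit most loci: the median locus had a mean of 8 normalized counts.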

Other observations

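Of the 219 loci, 187, 186 and 188 had a value above 0 in DMSO replicates 1 to 3, against 213, 210 and 193 in αKG replicates 1 to 3. Over all 20066 rows the order was the same, with 18413, 18538 and 18490 above 0 in DMSO and 19244, 19191 and 18537 in αKG. All 6 libraries were above 0 for 159 loci. At 12 loci every DMSO library was at 0, and at 0 loci every αKG library was. *Gm29112* in *Ikzf2*, a zinc finger transcription factor gene, had 0 normalized counts in each DMSO library and 3, 7 and 1 in αKG, and its neighbour *Gm28112* in the same gene had 2, 2 and 0 and then 16, 12 and 2. In *Hs2st1*, which encodes a heparan sulfate sulfotransferase, *Gm43707* had 3, 6 and 6 in DMSO and 37, 38 and 1 in αKG, so that αKG replicate 3 was below the DMSO libraries. Since a row was listed only if some library reached 2, these counts of detected loci are not independent of the direction.

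Among TEC rows, 68 lay inside a host of a sense-intronic locus, and their median log2 difference was 0.99. The 11 *Magi3* loci differed in GC content, and the Spearman correlation of their log2 difference with it was -0.31 (n = 11). *Cep112it* and *Bach2it1*, annotated as intronic transcripts of *Cep112* and *Bach2*, had 4, 4 and 1 and then 20, 16 and 6, and 1, 0 and 0 and then 5, 3 and 1 normalized counts.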
